A study of Homo sapiens with 20 samples.

Results

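Small nucleolar RNA (snoRNA) host genes were followed in OPM2, a line of human multiple myeloma cells, under inhibitors of histone deacetylases (HDACs). The members were chosen by symbol: SNHG followed by a number, together with GAS5, ZFAS1, EPB41L4A-AS1, MIR17HG and DANCR. This gave 33 of the 78932 gene identifiers in the count table, and 32 of them passed the filter on low counts, out of 20957 genes tested in all. The exception was SNHG28, with 5 counts over all 20 libraries. RNA was measured by poly(A)-selected, paired-end RNA sequencing of strand-specific libraries, in 10 groups of 2 independent biological replicates. The groups were panobinostat at 10 nM for 2, 5 or 20 h, romidepsin at 10 nM for 2, 5 or 20 h, ricolinostat at 100 nM for 2, 5 or 20 h, and the DMSO vehicle. Panobinostat is a hydroxamate that inhibits HDACs broadly, romidepsin is a cyclic depsipeptide that acts mainly on class I enzymes, and ricolinostat is a hydroxamate selective for HDAC6. All groups were the same line and are a model of that line alone. For ricolinostat the titles, protocol and design text give 100 nM, which is used here, but its treatment label reads 10 nM. No harvest time is given for DMSO, the batch is listed as unknown, and the same 2 DMSO libraries serve all 9 contrasts with an inhibitor.

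A snoRNA host gene carries snoRNAs in its introns, and splicing followed by trimming releases them. Box C/D snoRNAs (SNORD genes) guide 2′-O-methylation and box H/ACA snoRNAs (SNORA genes) guide pseudouridylation, mostly of ribosomal RNA. Many hosts begin with a run of pyrimidines, as ribosomal protein genes do, and their spliced RNA is often short-lived because nonsense-mediated decay removes it, so the host RNA measured here is not the amount of its snoRNAs. By RefSeq, 27 of the 33 members had at least 1 snoRNA gene inside their span, 147 snoRNA genes in all, with strand not checked. Of these hosts, 13 carried SNORD but no SNORA genes, 11 carried SNORA but no SNORD genes, and GAS5 and SNHG12 carried both kinds. SNHG28 carried 1 snoRNA gene without such a name, and so, beside their named ones, did SNHG1, SNHG14 and SNHG17. The other 6 carried no gene labelled snoRNA by RefSeq, and among them MIR17HG is the host of a cluster of microRNAs. Only genes under that label were counted. Related guide RNAs under another label, such as those of small Cajal body RNAs (SCARNA genes), would be missed.

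The pyrimidine start could be read in the RefSeq promoter table (GRCh38.p14), which held 29 of the 33 members. The base at the annotated start was C, with a run of at least 4 C or T from it, in 9 of these 29 hosts (31%). This held for 5.45% of all 35116 promoters in the table. The starts of 5 hosts with such a run are printed because they include genes that rose and genes that fell, and those of SNHG1 and DANCR because they do not reach it. Each stretch runs from 20 bases before the annotated start to base 30 from it, and the capitals mark the unbroken run of C and T that begins at the start.
SNHG5 (chr6:85678704-85678753, minus strand): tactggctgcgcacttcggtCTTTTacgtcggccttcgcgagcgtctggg
SNHG12 (chr1:28581844-28581893, minus strand): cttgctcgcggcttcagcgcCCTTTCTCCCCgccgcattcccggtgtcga
SNHG1 (chr11:62855856-62855905, minus strand): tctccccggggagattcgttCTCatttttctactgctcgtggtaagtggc
SNHG4 (chr5:139274081-139274130, plus strand): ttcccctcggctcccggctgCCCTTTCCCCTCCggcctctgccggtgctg
SNHG7 (chr9:136728155-136728204, minus strand): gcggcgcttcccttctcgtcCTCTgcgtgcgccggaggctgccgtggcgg
SNHG26 (chr7:22854220-22854269, plus strand): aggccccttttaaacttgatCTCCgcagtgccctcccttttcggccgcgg
DANCR (chr4:52712374-52712423, plus strand): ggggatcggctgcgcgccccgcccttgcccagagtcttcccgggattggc
SNHG12 and SNHG4 had the longest runs of these 7, of 11 and 13 bases, SNHG1 had a run of 3, and DANCR had none at its annotated start. The palindrome CACGTG, the E-box bound by MYC with MAX, lay within the 300 bases around the start of 2 of the 29 hosts (6.9%), SNHG30 and SNHG7, against 7.26% of all promoters. A match is a description of letters only. Starts of transcription were not measured, and the RefSeq starts used here can differ from those of GENCODE 29. For SNHG12 RefSeq gives 28581873 and GENCODE 28583132. For GAS5, with an A at the RefSeq start, they give 173869045 and 173868882.

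MIR17HG gives rise to 6 microRNA hairpins and 12 mature microRNAs on chromosome 13. The arms that are usually the more abundant are printed, with the seed (bases 2 to 8) in capitals, because the seeds group them into families.
hsa-miR-17-5p: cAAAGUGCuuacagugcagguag
hsa-miR-20a-5p: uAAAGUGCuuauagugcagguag
hsa-miR-18a-5p: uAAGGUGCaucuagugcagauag
hsa-miR-19a-3p: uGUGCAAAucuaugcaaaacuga
hsa-miR-19b-3p: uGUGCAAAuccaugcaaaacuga
hsa-miR-92a-3p: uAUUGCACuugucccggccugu
The first 2 share 1 seed, miR-19a-3p and miR-19b-3p share another, and miR-18a-5p and miR-92a-3p each had a seed of its own. The sequences are from RefSeq (GRCh38.p14). Mature microRNAs are too short for these libraries, so the values below are of the host RNA.

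Library totals ran from 17264640 to 29088868 counts. Levels are CPM, counts divided by the TMM-scaled library size, and log2 fold changes and adjusted p-values are from edgeR's quasi-likelihood test with Benjamini-Hochberg adjustment over all genes tested; a gene rose or fell where the adjusted p was under 0.05. Most plasma cell and myeloma markers were abundant in DMSO, where SDC1 averaged 1118 CPM, IRF4 1750 CPM, NSD2 2504 CPM and FGFR3 3533 CPM. CD38 was the lowest of the 10, at 11.4 CPM. After 20 h, 0 of the 10 rose and 10 fell with panobinostat, 1 and 9 with romidepsin and 1 and 8 with ricolinostat (all genes 40.8% and 32.3%, 38.6% and 29.9%, 14.7% and 16.4%). The summed level of the 10 markers was 1560 to 1561 CPM after 20 h of panobinostat, 2928 to 2950 CPM after 20 h of romidepsin and 9347 to 9408 CPM after 20 h of ricolinostat, against 11110 to 11170 CPM in DMSO. Of the T and NK markers, CD3D, CD3E and CD8A were at 0 in DMSO, and the 5 together reached at most 0.664 CPM in any library. Myeloid markers reached at most 7.74 CPM, erythroid markers at most 1.5 CPM. Epithelial and stromal markers summed to 34.1 to 35.4 CPM after 20 h of panobinostat and 25.3 to 27.99 CPM after 20 h of romidepsin, against 4.54 to 5.21 CPM in DMSO, where EPCAM, COL1A1 and COL3A1 were at 0 and PECAM1 was the main one. COL1A1 had 34.7 CPM in its highest library. PECAM1 reached at most 5.36 CPM and EPCAM, KRT18 and COL3A1 at most 0.126 CPM in any library. COL1A1 therefore made up most of the sums at 20 h of panobinostat and romidepsin. The part of these marker shifts in the results was not tested. In such bulk libraries, fewer cells of a kind and less RNA per cell cannot be told apart. The replicates of panobinostat 2 h differed most from each other (chi-square per degree of freedom 6.48, against 2.35 to 4.25 in the other groups). Without its replicate 2, 4 hosts rose and 11 fell in that group, and without its replicate 1, 5 rose and 15 fell.

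In DMSO no count was found for SNHG28. Per kilobase of annotated exon, the level in DMSO was 154 CPM for SNHG19, 127 for SNHG8, 119 for SNHG29 and 116 for GAS5, the 4 highest. The 6 named hosts with the largest changes had 60.9 CPM per kilobase for DANCR, 13.6 for SNHG17, 4.47 for SNHG26, 1.48 for SNHG20, 1.44 for MIR17HG and 1.37 for SNHG5. SNHG18, SNHG22 and SNHG27 did not exceed 1.23 CPM in any library. The summed level of the hosts was 2411 ± 20.8 CPM in DMSO (SD, n = 2). Under panobinostat it was 2393 ± 88.7 CPM at 2 h, 2215 ± 2.08 at 5 h and 1692 ± 41.6 at 20 h. Under romidepsin it was 2258 ± 40.3, 2092 ± 2.06 and 1703 ± 6.39 CPM at these times, and under ricolinostat 2167 ± 1.30, 2023 ± 72.9 and 2045 ± 5.04 CPM. The sum was lowest after 20 h of panobinostat or romidepsin, and no library of these groups reached a DMSO library.

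Most hosts that changed fell, and a few rose. Of the 32 tested, 29 passed the test in at least 1 contrast with DMSO, 18 of them lower and never higher, 5 higher and never lower, and 6 in both directions. The matching shares over all genes were not computed, so these counts do not set the hosts apart from other genes. At 20 h of panobinostat alone, 40.8% of all genes rose and 32.3% fell. Panobinostat gave 5 higher and 13 lower hosts at 2 h, where 20.8% of all genes tested were higher and 18.1% lower. At 5 h it gave 4 higher and 18 lower (all genes 30.7% and 25.9%), and at 20 h 8 and 19 (all genes 40.8% and 32.3%). Romidepsin gave 1 higher and 5 lower at 2 h (all genes 3.55% and 4.62%), 4 and 16 at 5 h (all genes 13% and 16.5%), and 6 and 20 at 20 h (all genes 38.6% and 29.9%). Ricolinostat gave 5 higher and 18 lower at 2 h (all genes 16.9% and 14.5%), 3 and 18 at 5 h (all genes 18.8% and 15.3%), and 0 and 14 at 20 h (all genes 14.7% and 16.4%). The share of hosts that fell exceeded that of all genes in each of the 9 contrasts. The share that rose was below it, though near it at 2 and 5 h of romidepsin and at 2 h of ricolinostat.

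The median log2 change of the hosts was -0.62 after 20 h of panobinostat and -0.51 after 20 h of romidepsin, whereas that of all genes was 0.25 and 0.22. After 20 h of ricolinostat the hosts' median was -0.28 and that of all genes 0.03. With library size alone as the scaling, the median of all genes moved by 0.30 log2 units for panobinostat at 20 h, by 0.23 for romidepsin at 20 h, by 0.13 for either at 5 h and by 0.10 for ricolinostat at 20 h. Relative to all genes, which removes such a shift, the hosts' median was -0.87 for panobinostat, -0.73 for romidepsin and -0.32 for ricolinostat at 20 h. Under that scaling the calls were 7 higher and 14 lower for panobinostat at 5 h and 12 and 16 at 20 h. For romidepsin at 2 h they were 2 and 3, and for ricolinostat at 20 h 2 and 12. Among the calls of all genes under that scaling, 62.7% were higher at 5 h and 65.9% at 20 h of panobinostat. With TMM these were 54.3% and 55.8%. The share of all genes called under that scaling is not given here. Without DMSO replicate 2, 0 hosts rose at 2 h and 2 at 5 h of romidepsin, and 1 at 5 h of ricolinostat. Without either romidepsin 2 h library no host rose there, and 2 fell without its replicate 2. Without DMSO replicate 1, 3 fell at 2 h of romidepsin. Without romidepsin 5 h replicate 1, 2 rose at 5 h.

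**Figure D1:**
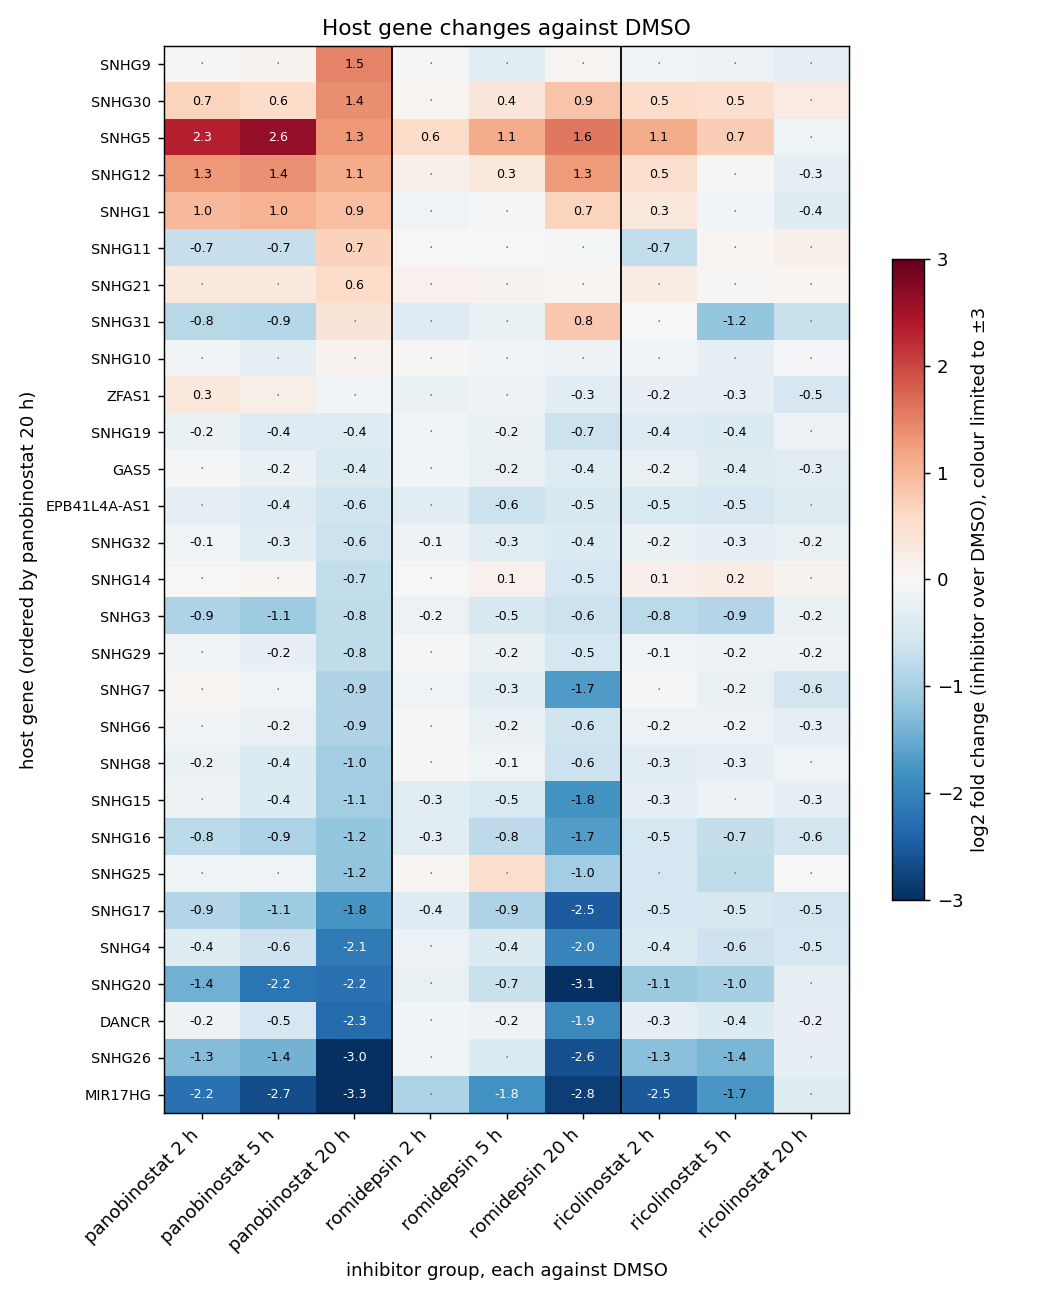
Log2 fold change of 29 host genes (rows, ordered by panobinostat 20 h) in each inhibitor and time group over DMSO (columns). Numbers stand where the edgeR adjusted p was under 0.05 and dots where it was not. SNHG18, SNHG22 and SNHG27, which did not exceed 1.23 CPM, are left out. SNHG5, SNHG12 and SNHG1 are red at all 3 times of panobinostat, and the rows from SNHG16 to MIR17HG are darkest blue at 20 h of panobinostat and romidepsin.

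Box C/D hosts went both ways. Of 13 tested, 3 higher and 8 lower passed after 20 h of panobinostat, 3 higher and 9 lower after 20 h of romidepsin and 0 higher and 6 lower after 20 h of ricolinostat (all genes 40.8% and 32.3%, 38.6% and 29.9%, 14.7% and 16.4%). SNHG5 (ENSG00000203875, chromosome 6, 85660950 to 85678748, minus strand, GENCODE 29 on GRCh38), the host of the SNORD50 pair, was the host with the largest early rise. It had 4.40 and 3.28 CPM in the DMSO libraries, 19.1 and 19.3 CPM after 2 h of panobinostat, 22.5 and 24.8 CPM after 5 h and 9.26 and 9.39 CPM after 20 h. It had 5.91 and 5.32 CPM at 2 h of romidepsin, 8.31 and 8.11 CPM at 5 h and 10.1 and 12.7 CPM at 20 h. With ricolinostat it had 8.47 and 7.97 CPM at 2 h, 6.42 and 6.41 at 5 h and 3.38 and 3.58 at 20 h. All libraries of the first 8 of these inhibitor groups lay above both DMSO libraries, and only ricolinostat at 20 h overlapped them. The log2 changes were 2.33, 2.63 and 1.29 (SE 0.15 to 0.16, edgeR adjusted p = 1.12e-25, 5.88e-30 and 7.8e-12) for panobinostat, 0.56, 1.11 and 1.58 (SE 0.16 to 0.18, edgeR adjusted p = 0.0305, 3.51e-08 and 9.01e-16) for romidepsin and 1.11, 0.75 and -0.13 (SE 0.17 to 0.19, edgeR adjusted p = 2.11e-08, 0.000185 and 0.668) for ricolinostat. The call at 2 h of romidepsin was lost without any of 3 libraries (0.34 without DMSO replicate 2, 0.47 and 0.61 without replicate 1 or 2 of the group), and that at 5 h of ricolinostat without DMSO replicate 2 (0.50).

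SNHG1 (ENSG00000255717, chromosome 11, 62851988 to 62855914, minus strand), which carries 8 SNORD genes including SNORD22 and SNORD25 to SNORD31, had 134 and 128 CPM in the DMSO libraries, 272 and 242 CPM after 2 h of panobinostat, 257 and 281 CPM after 5 h and 249.9 and 239 CPM after 20 h. It had 125 and 114 CPM at 2 h of romidepsin, 121 and 132 CPM at 5 h and 212 and 205 CPM at 20 h. With ricolinostat it had 158 and 168 CPM at 2 h, 121 and 124 at 5 h and 99.5 and 102 at 20 h. Panobinostat libraries were about double the DMSO level from the first time point, romidepsin libraries came near that level at 20 h alone, and ricolinostat libraries were above DMSO at 2 h and below it at 20 h. Its log2 changes were 0.97, 1.04 and 0.90 (SE 0.050 to 0.051, edgeR adjusted p = 1.79e-27, 1.34e-29 and 9.61e-27) for panobinostat, -0.13, -0.05 and 0.68 (SE 0.051 to 0.052, edgeR adjusted p = 0.121, 0.521 and 7.4e-20) for romidepsin and 0.32, -0.09 and -0.37 (SE 0.051 to 0.053, edgeR adjusted p = 3.46e-07, 0.185 and 1.97e-08) for ricolinostat.

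SNHG30, the host of SNORD7, rose in 7 of the 9 contrasts. It had 13.03 and 12.1 CPM in the DMSO libraries, 21.9 and 18.2 CPM after 2 h of panobinostat, 20.4 and 16.7 CPM after 5 h and 33.3 and 32.7 CPM after 20 h. With romidepsin the values were 14.3 and 12.1 CPM at 2 h, 16.9 and 15.2 at 5 h and 21.2 and 24.2 at 20 h, and with ricolinostat 17.6 and 19.04, 17.8 and 18.1 and 15.7 and 14.3. Its highest libraries were those of panobinostat at 20 h, with a log2 change of 1.39 (SE 0.11, edgeR adjusted p = 2e-22), against 0.85 (SE 0.11, edgeR adjusted p = 3.17e-11) for romidepsin at 20 h. The smaller change at 5 h of romidepsin, 0.35 (SE 0.12, edgeR adjusted p = 0.0123), was lost without DMSO replicate 2 (0.29) and without romidepsin 5 h replicate 1 (0.26).

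SNHG26 and SNHG16 are box C/D hosts that fell. SNHG26, the host of SNORD93, had 12.1 and 11.4 CPM in the DMSO libraries, 6.17 and 3.52 CPM after 2 h of panobinostat, 4.72 and 4.12 CPM after 5 h and 1.48 and 1.41 CPM after 20 h. It had 10.1 and 11.9 CPM at 2 h of romidepsin, 8.91 and 8.66 CPM at 5 h and 1.43 and 2.30 CPM at 20 h, and 4.76 and 5.04, 4.46 and 4.63 and 9.19 and 10.6 CPM at the same times of ricolinostat. The level at 20 h was lowest under panobinostat and romidepsin, while ricolinostat libraries were low at 2 and 5 h and nearer to DMSO at 20 h. Its log2 changes were -1.30, -1.42 and -3.02 (SE 0.18 to 0.21, edgeR adjusted p = 1.55e-09, 1.05e-10 and 5.04e-25) for panobinostat, -0.09, -0.42 and -2.63 (SE 0.17 to 0.21, edgeR adjusted p = 0.866, 0.0519 and 9.31e-22) for romidepsin and -1.26, -1.37 and -0.25 (SE 0.17 to 0.18, edgeR adjusted p = 4.68e-09, 4.23e-10 and 0.282) for ricolinostat. SNHG16, which carries the SNORD1 trio, fell in all 9 contrasts. It had 71.5 and 72.8 CPM in the DMSO libraries, 41.2 and 41.3 CPM after 2 h of panobinostat, 37.7 and 37.8 CPM after 5 h and 33.8 and 31.1 CPM after 20 h, 61.2 and 54.6, 43.9 and 39.9 and 22.6 and 22.7 CPM at these times of romidepsin, and 49.6 and 50.7, 47.4 and 40.3 and 47.2 and 51.1 CPM at those of ricolinostat. Its lowest libraries were those of romidepsin at 20 h, with a log2 change of -1.67 (SE 0.075, edgeR adjusted p = 1.42e-38). At 2 h of romidepsin the call, -0.32 (SE 0.069, edgeR adjusted p = 0.000477), was lost without romidepsin 2 h replicate 2 (-0.26).

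The other box C/D hosts mostly changed by less than 1 log2 unit. ZFAS1 (ENSG00000177410, chromosome 20, 49278178 to 49295738, plus strand), host of the SNORD12 family and antisense to the start of ZNFX1, had 29.9 and 29.4 CPM in the DMSO libraries, 36.4 and 37.00 CPM after 2 h of panobinostat, 31.7 and 35.2 CPM after 5 h and 28.3 and 27.3 CPM after 20 h. It had 27.6 and 23.8 CPM at 2 h of romidepsin, 25.7 and 27.9 CPM at 5 h and 22.97 and 23.9 CPM at 20 h, and 23.5 and 26.5, 24.1 and 24.1 and 18.8 and 23.01 CPM at the same times of ricolinostat. It was above DMSO at 2 h of panobinostat, 0.31 (SE 0.087, edgeR adjusted p = 0.00214), a call lost without panobinostat 2 h replicate 2 (0.23), and below DMSO at 20 h of ricolinostat, -0.51 (SE 0.092, edgeR adjusted p = 3.44e-06). After 20 h of panobinostat its value was -0.09 (SE 0.087, edgeR adjusted p = 0.345), and with library size alone as the scaling it became 0.21 and passed the test. SNHG29, SNHG32, SNHG6 and SNHG19 carry SNORD genes and had log2 changes of -0.76, -0.64, -0.90 and -0.38 after 20 h of panobinostat and -0.54, -0.41, -0.59 and -0.65 after 20 h of romidepsin. All 8 of these values passed the test, and with library size alone that of SNHG19 for panobinostat did not (-0.07). SNHG25, the host of SNORD104, fell at 20 h of both, with -1.18 (SE 0.43, edgeR adjusted p = 0.0104) for panobinostat and -1.04 (SE 0.43, edgeR adjusted p = 0.0279) for romidepsin, with at most 2.09 CPM in any library. Both calls were lost with library size alone (-0.88 and -0.80), without DMSO replicate 2 (-1.09 and -0.91) and without panobinostat 20 h replicate 1 or either romidepsin 20 h library (-1.05 and -1.16). SNHG14 lies in the imprinted region of chromosome 15, carries the SNORD115 and SNORD116 arrays and runs antisense into UBE3A. Its values per library and those of SNHG11 and SNHG12 are outside the rule on size and were chosen after they had been seen. It had 142 and 131 CPM at 20 h of panobinostat and 154 and 156 CPM at 20 h of romidepsin, against 233 and 219 CPM in DMSO. All 4 inhibitor libraries lay below both DMSO libraries, with log2 changes of -0.73 (SE 0.046, edgeR adjusted p = 4.83e-28) and -0.54 (SE 0.046, edgeR adjusted p = 1.09e-19). SNHG14 stood slightly above DMSO at 5 h of romidepsin, 0.14 (SE 0.045, edgeR adjusted p = 0.0135), at 2 h of ricolinostat, 0.15 (SE 0.045, edgeR adjusted p = 0.00673), and at 5 h of ricolinostat, 0.21 (SE 0.045, edgeR adjusted p = 5.07e-05). The call at 5 h of romidepsin was lost without DMSO replicate 2 (0.07) or either library of that group (0.11 and 0.13). The call at 2 h of ricolinostat was lost without DMSO replicate 2 (0.08) or either library of that group (0.10 and 0.03), and the call at 5 h without DMSO replicate 2 (0.12) or ricolinostat 5 h replicate 1 (0.08). SNHG18, the host of SNORD123, passed in none of the 9 contrasts.

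GAS5 and SNHG12 carry snoRNAs of both kinds. GAS5 (ENSG00000234741, chromosome 1, 173863900 to 173868882, minus strand) carries 10 SNORD genes and 1 SNORA gene, and its spliced RNA is a known target of nonsense-mediated decay that builds up when growth or translation stops. It had 419.6 and 425 CPM in the DMSO libraries, 429.7 and 399.6 CPM after 2 h of panobinostat, 377 and 361 CPM after 5 h and 328 and 302 CPM after 20 h. It had 400.3 and 395 CPM at 2 h of romidepsin, 362 and 367 CPM at 5 h and 324 and 325 CPM at 20 h, and 368 and 359, 334 and 324 and 333 and 342 CPM at the same times of ricolinostat. No group rose, and all libraries at 5 and 20 h lay below both DMSO libraries. The log2 changes were -0.03, -0.20 and -0.42 (SE 0.040, edgeR adjusted p = 0.65, 1.45e-05 and 3.09e-17) for panobinostat, -0.09, -0.21 and -0.38 (SE 0.040, edgeR adjusted p = 0.195, 8.18e-06 and 9.73e-15) for romidepsin and -0.22, -0.36 and -0.33 (SE 0.040, edgeR adjusted p = 4.12e-06, 5.36e-13 and 4.84e-11) for ricolinostat. With library size alone as the scaling, the calls at 5 h of panobinostat and romidepsin were lost (-0.07 and -0.09). SNHG12 (ENSG00000197989, chromosome 1, 28578538 to 28583132, minus strand) carries SNORD99 and 3 SNORA genes. It had 42.8 and 43.9 CPM in the DMSO libraries, 109 and 106 CPM after 2 h of panobinostat, 111 and 114 CPM after 5 h and 95.5 and 91.4 CPM after 20 h. It had 50.8 and 46.2 CPM at 2 h of romidepsin, 55.7 and 51.7 CPM at 5 h and 108 and 102 CPM at 20 h, and 59.2 and 62.6, 43.9 and 44.7 and 34.9 and 36.2 CPM at the same times of ricolinostat. The panobinostat libraries were high at all 3 times, and the romidepsin libraries reached the same height at 20 h. The log2 changes were 1.30, 1.37 and 1.11 (SE 0.061, edgeR adjusted p = 1.97e-36, 1.46e-38 and 2.45e-32) for panobinostat, 0.16, 0.31 and 1.27 (SE 0.061 to 0.064, edgeR adjusted p = 0.12, 4e-05 and 1.01e-36) for romidepsin and 0.49, 0.03 and -0.29 (SE 0.063 to 0.067, edgeR adjusted p = 1.24e-10, 0.809 and 0.000274) for ricolinostat.

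**Figure D2:**
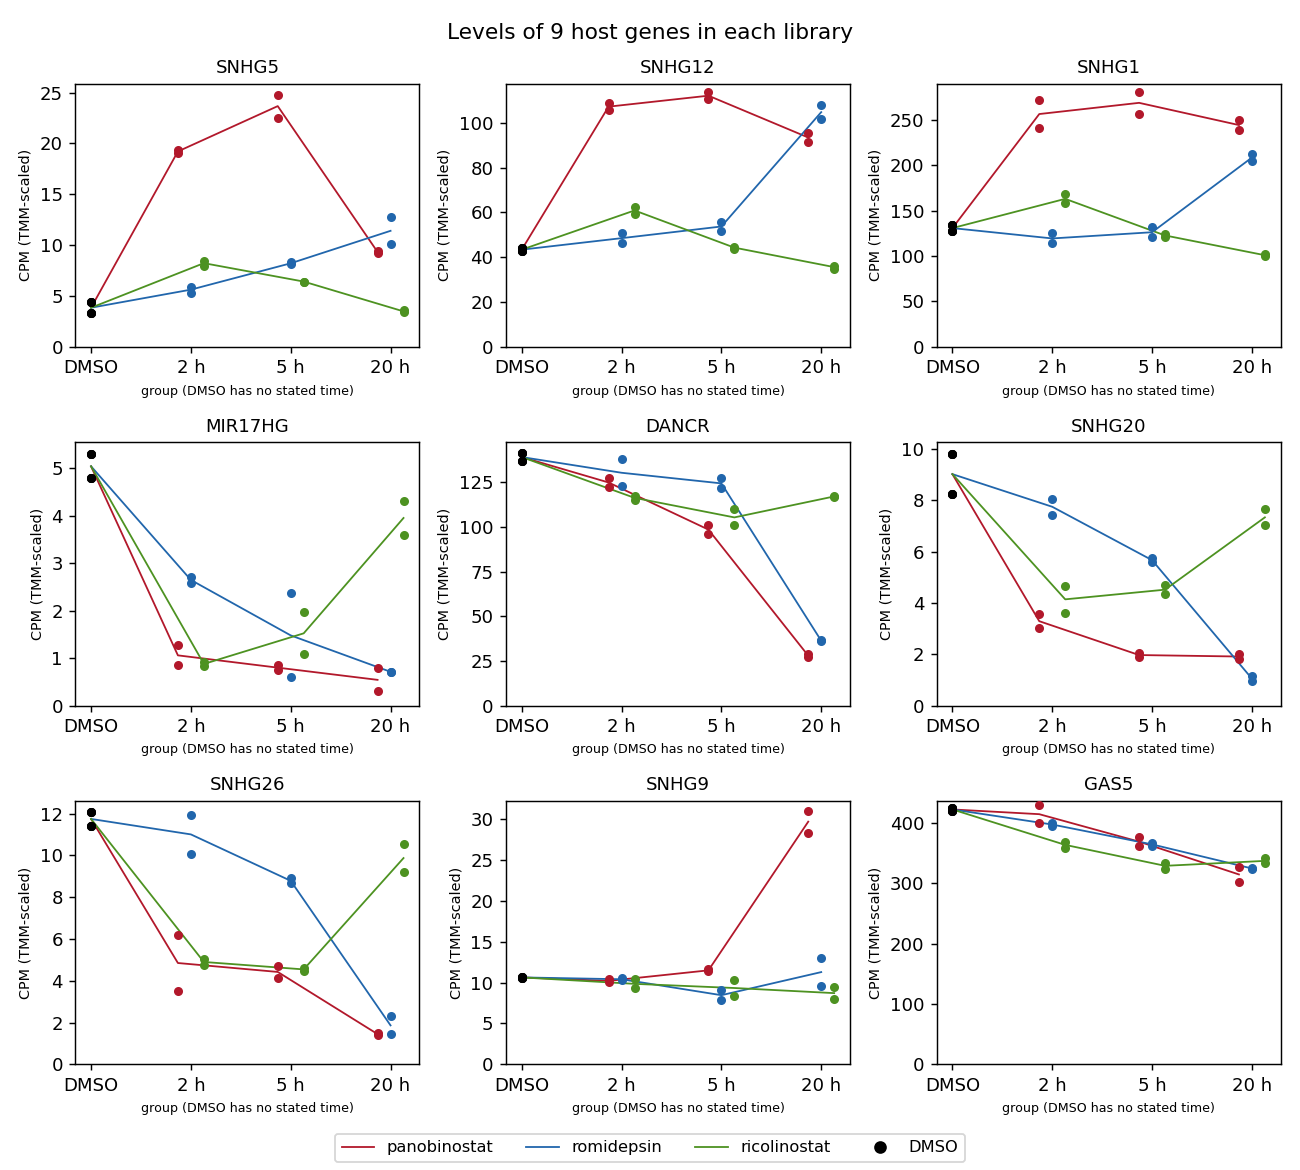
Level of 9 host genes in each library (CPM on TMM-scaled library sizes, vertical axes from 0) in DMSO and after 2, 5 and 20 h of each inhibitor. Each point is a library and each line joins group means. DMSO has no stated time and is shared by the 3 lines. SNHG5, SNHG12 and SNHG1 are high from 2 h of panobinostat, MIR17HG, DANCR, SNHG20 and SNHG26 are low at 20 h of panobinostat and romidepsin, SNHG9 is high only at 20 h of panobinostat, and GAS5 moves little.

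Box H/ACA hosts mostly fell. None of the 11 tested rose at 2 or 5 h of any inhibitor. At these times 20.8% and 30.7% of all genes rose with panobinostat, 3.55% and 13% with romidepsin and 16.9% and 18.8% with ricolinostat. With 11 hosts, 0 is near the shares for romidepsin. After 20 h, 2 higher and 8 lower passed for panobinostat, 1 higher and 8 lower for romidepsin and 0 higher and 6 lower for ricolinostat (all genes 40.8% and 32.3%, 38.6% and 29.9%, 14.7% and 16.4%). DANCR (ENSG00000226950, chromosome 4, 52712404 to 52720351, plus strand), the host of SNORA26 and named for its role in holding back differentiation, had 142 and 137 CPM in the DMSO libraries, 128 and 122 CPM after 2 h of panobinostat, 101 and 95.8 CPM after 5 h and 26.9 and 28.9 CPM after 20 h. It had 123 and 138 CPM at 2 h of romidepsin, 122 and 127 CPM at 5 h and 35.99 and 36.6 CPM at 20 h, and 115 and 118, 109.8 and 101 and 117 and 117 CPM at the same times of ricolinostat. The libraries at 20 h of panobinostat and romidepsin stood far below all others, which stayed above 95 CPM. The log2 changes were -0.16, -0.50 and -2.31 (SE 0.053 to 0.059, edgeR adjusted p = 0.0116, 3.16e-14 and 2.31e-59) for panobinostat, -0.09, -0.16 and -1.94 (SE 0.052 to 0.058, edgeR adjusted p = 0.332, 0.0124 and 5.37e-53) for romidepsin and -0.26, -0.40 and -0.25 (SE 0.053, edgeR adjusted p = 2.81e-05, 3.76e-10 and 6.8e-05) for ricolinostat. The call at 5 h of romidepsin was lost with library size alone (-0.03) and without DMSO replicate 1 (-0.15) or romidepsin 5 h replicate 1 (-0.14), and that at 2 h of panobinostat without DMSO replicate 1 (-0.15).

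SNHG4, the host of the SNORA74 pair, and SNHG17, the host of the SNORA71 family, were lowest at 20 h of panobinostat and romidepsin. SNHG17 fell in all 9 contrasts, with -0.89 already at 2 h and -1.06 at 5 h of panobinostat. SNHG4 had 50.6 and 50.7 CPM in the DMSO libraries, 39.3 and 39.6 CPM after 2 h of panobinostat, 31.4 and 34.2 CPM after 5 h and 12.03 and 11.3 CPM after 20 h, 46.95 and 43.1, 38.4 and 38.4 and 12.2 and 12.8 CPM at these times of romidepsin, and 39.4 and 35.2, 33.2 and 32.1 and 36.01 and 35.1 CPM at those of ricolinostat. Its log2 change was -2.12 (SE 0.085, edgeR adjusted p = 7.95e-43) after 20 h of panobinostat, -2.01 (SE 0.086, edgeR adjusted p = 1.88e-40) after 20 h of romidepsin and -0.51 (SE 0.076, edgeR adjusted p = 2.36e-08) after 20 h of ricolinostat. SNHG17 had 54.2 and 59.5 CPM in the DMSO libraries, 33.2 and 28.5 CPM after 2 h of panobinostat, 27.3 and 27.2 CPM after 5 h and 18.9 and 14.6 CPM after 20 h, 45.5 and 42.1, 29.4 and 30.9 and 10.2 and 9.81 CPM at these times of romidepsin, and 39.9 and 38.8, 41.1 and 40.03 and 38.4 and 39.8 CPM at those of ricolinostat. All inhibitor libraries lay below both DMSO libraries for either gene, and SNHG17 was lowest under romidepsin. Its log2 change was -1.78 (SE 0.085, edgeR adjusted p = 8.95e-37) after 20 h of panobinostat, -2.51 (SE 0.093, edgeR adjusted p = 2.01e-45) after 20 h of romidepsin and -0.54 (SE 0.079, edgeR adjusted p = 1.21e-08) after 20 h of ricolinostat.

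SNHG15, a short-lived host RNA that carries SNORA9, and SNHG7, which carries the SNORA17 pair, fell further under romidepsin. SNHG15 had 28.5 and 28.2 CPM at 20 h of panobinostat, 16.1 and 17.7 CPM at 20 h of romidepsin and 44.1 and 51.2 CPM at 20 h of ricolinostat, against 58.99 and 58.5 CPM in DMSO. Its log2 changes there were -1.05 (SE 0.074, edgeR adjusted p = 8.87e-25), -1.80 (SE 0.080, edgeR adjusted p = 4.94e-39) and -0.30 (SE 0.072, edgeR adjusted p = 0.000332), and the last was lost without ricolinostat 20 h replicate 1 (-0.20). At 2 and 5 h SNHG15 lay between 41.97 and 56.5 CPM over the 12 inhibitor libraries. SNHG7 had 58.3 and 59.7 CPM at 20 h of panobinostat, 37.8 and 30.6 CPM at 20 h of romidepsin and 76.4 and 72.8 CPM at 20 h of ricolinostat, against 109 and 111 CPM in DMSO. Its log2 changes there were -0.90 (SE 0.067, edgeR adjusted p = 8.69e-17), -1.69 (SE 0.072, edgeR adjusted p = 3.6e-26) and -0.56 (SE 0.067, edgeR adjusted p = 1.78e-09). At 2 and 5 h SNHG7 lay between 79.95 and 120.2 CPM.

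SNHG9, the host of SNORA78, rose at 20 h of panobinostat alone. It had 10.6 and 10.7 CPM in the DMSO libraries, 10.04 and 10.4 CPM after 2 h of panobinostat, 11.4 and 11.6 CPM after 5 h and 28.4 and 31.03 CPM after 20 h. It had 10.5 and 10.3 CPM at 2 h of romidepsin, 7.84 and 9.08 CPM at 5 h and 12.98 and 9.59 CPM at 20 h, and 9.30 and 10.4, 10.3 and 8.42 and 9.41 and 8.02 CPM at the same times of ricolinostat. Only the 2 libraries at 20 h of panobinostat stood apart, at more than double any other library. The log2 change was 1.48 (SE 0.12, edgeR adjusted p = 2.04e-20) there and 0.08 (SE 0.13, edgeR adjusted p = 0.605) at 20 h of romidepsin. SNHG11, which carries SNORA60 and SNORA71E, had log2 changes of -0.69, -0.70 and 0.68 at 2, 5 and 20 h of panobinostat (edgeR adjusted p = 0.00051, 0.000397 and 5.06e-05), so it was below DMSO at 2 and 5 h and above it at 20 h. Its values were 4.86 and 4.90 CPM at 2 h, 5.12 and 4.66 at 5 h and 13.9 and 11.5 at 20 h of panobinostat, against 7.74 and 8.04 CPM in DMSO. SNHG3, the host of the SNORA73 pair, fell in all 9 contrasts, with -1.07 at 5 h of panobinostat and -0.17 at 2 h of romidepsin as the extremes, and that last call was lost without any 1 of its 4 libraries (as near to 0 as -0.15) and with library size alone (-0.12), as was that at 20 h of ricolinostat (-0.11). SNHG8, the host of SNORA24, fell in 7, by as much as -1.02 at 20 h of panobinostat. EPB41L4A-AS1, the host of SNORA13, had 9.37 and 9.60 CPM at 20 h of panobinostat and 11.4 and 9.26 CPM at 20 h of romidepsin, against 14.8 and 14.1 CPM in DMSO. It fell in 6 contrasts, between -0.38 and -0.64, and the 3 calls at 5 h of panobinostat and at 20 h of panobinostat and romidepsin were lost with library size alone (-0.25, -0.30 and -0.25). At 5 h of panobinostat the call was also lost without DMSO replicate 1 (-0.38) or panobinostat 5 h replicate 2 (-0.24). Without romidepsin 20 h replicate 2 (-0.38), ricolinostat 2 h replicate 1 (-0.45) or ricolinostat 5 h replicate 2 (-0.28), the call of that group was lost as well. SNHG31, the host of SNORA70I, changed both ways, with -0.84 at 2 h of panobinostat and 0.81 at 20 h of romidepsin, on at most 4.48 CPM. The first was lost without DMSO replicate 1 (-0.50) or panobinostat 2 h replicate 2 (-0.65), the second without DMSO replicate 2 (0.46) or romidepsin 20 h replicate 2 (0.71).

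MIR17HG (ENSG00000215417, chromosome 13, 91347820 to 91354579, plus strand), the precursor of the microRNAs printed above and a known target of the transcription factor MYC, had the largest fall of the hosts at each time of panobinostat. It had 4.78 and 5.29 CPM in the DMSO libraries, 0.849 and 1.26 CPM after 2 h of panobinostat, 0.854 and 0.742 CPM after 5 h and 0.781 and 0.3 CPM after 20 h. It had 2.58 and 2.70 CPM at 2 h of romidepsin, 0.591 and 2.36 CPM at 5 h and 0.716 and 0.704 CPM at 20 h, and 0.917 and 0.833, 1.08 and 1.96 and 3.59 and 4.30 CPM at the same times of ricolinostat. Every inhibitor library was below both DMSO libraries, the 2 libraries at 5 h of romidepsin differed widely, and the ricolinostat libraries at 20 h were the nearest to DMSO. Log2 changes of MIR17HG were -2.23, -2.66 and -3.27 (SE 0.35 to 0.38, edgeR adjusted p = 1.1e-07, 3.08e-09 and 2.79e-12) for panobinostat, -0.93, -1.80 and -2.82 (SE 0.32 to 0.37, edgeR adjusted p = 0.0522, 1.13e-05 and 2.13e-10) for romidepsin and -2.52, -1.75 and -0.35 (SE 0.30 to 0.36, edgeR adjusted p = 1.3e-08, 1.21e-05 and 0.426) for ricolinostat. These values rest on few reads, 10 to 142 counts per library. MYC itself had log2 changes of -2.88, -3.60 and -5.52 at 2, 5 and 20 h of panobinostat, -0.91, -1.46 and -4.20 at these times of romidepsin and -1.07, -0.37 and -0.20 at those of ricolinostat, and passed in all 9 contrasts.

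Of 12 genes known to regulate the cluster or to be targeted by its microRNAs, 5 rose and 7 fell after 20 h of panobinostat, 4 rose and 6 fell after 20 h of romidepsin, and 2 rose and 5 fell after 20 h of ricolinostat. Of all genes, 40.8% and 32.3%, 38.6% and 29.9% and 14.7% and 16.4% rose and fell in these groups. The share of the 12 that rose was near that of all genes, and the share that fell was above it. Among the targets, the cell cycle inhibitor CDKN1A had log2 changes of 2.52, 3.36 and 0.66 at 20 h of panobinostat, romidepsin and ricolinostat, all past the threshold. SOCS1, a brake on cytokine signalling, had 3.05, 2.90 and -0.68 in the same order. E2F2, a cell cycle transcription factor, had -2.75, -2.15 and -0.19. The named genes, chosen by the size of their change, went both ways at 20 h of panobinostat and romidepsin, where MIR17HG fell. A link between them and MIR17HG was not tested.

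SNHG20 carried no gene labelled snoRNA by RefSeq and fell in 7 of 9 contrasts. It had 9.82 and 8.23 CPM in the DMSO libraries, 3.02 and 3.56 CPM after 2 h of panobinostat, 1.88 and 2.06 CPM after 5 h and 1.99 and 1.83 CPM after 20 h. It had 8.06 and 7.45 CPM at 2 h of romidepsin, 5.60 and 5.74 CPM at 5 h and 1.14 and 0.963 CPM at 20 h, and 4.67 and 3.61, 4.69 and 4.35 and 7.66 and 7.02 CPM at the same times of ricolinostat. The lowest libraries were those at 20 h of romidepsin. For SNHG20 the log2 changes were -1.45, -2.18 and -2.24 (SE 0.20 to 0.22, edgeR adjusted p = 1.64e-09, 2.96e-15 and 4.21e-17) for panobinostat, -0.22, -0.67 and -3.10 (SE 0.18 to 0.24, edgeR adjusted p = 0.592, 0.00373 and 5.01e-22) for romidepsin and -1.12, -0.99 and -0.29 (SE 0.19 to 0.20, edgeR adjusted p = 1.15e-06, 1.24e-05 and 0.247) for ricolinostat, and the call at 5 h of romidepsin was lost without DMSO replicate 1 (-0.55). Of the others without a gene of that label, SNHG10 and SNHG22 passed in no contrast with DMSO. SNHG21 rose once, by 0.57 at 20 h of panobinostat, a call lost without DMSO replicate 1 (0.34) or panobinostat 20 h replicate 1 (0.31). SNHG27 was called higher at 20 h of panobinostat and romidepsin on 30 and 28 counts over 2 libraries, against 3 counts over the 2 DMSO libraries, and both calls were lost without DMSO replicate 2. The ratio of levels was 8.56 for panobinostat (95% exact interval 2.66 to 43.85) and 9.29 for romidepsin (2.87 to 47.74), intervals that cover counting error only.

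Romidepsin and panobinostat were given at the same dose and times, so their levels were tested against each other. These tests use the same panobinostat libraries as the contrasts with DMSO. Hosts picked for a change with panobinostat there therefore tend to differ here too. How strongly each inhibited HDACs is not known from these data, so strength and kind of inhibitor cannot be told apart. At 2 h 9 hosts were higher and 7 lower with romidepsin than with panobinostat (all genes 17.3% and 19.8%). At 5 h there were 8 and 6 (all genes 24.8% and 25.9%), and at 20 h 7 and 12 (all genes 23.4% and 18.3%). The hosts that panobinostat raised early were lower with romidepsin at 2 h, SNHG5 with a log2 difference of -1.77 (95% interval -2.07 to -1.48, edgeR adjusted p = 1.32e-19), SNHG12 with -1.14 (95% interval -1.26 to -1.02, edgeR adjusted p = 3.17e-32) and SNHG1 with -1.10 (SE 0.051, edgeR adjusted p = 3.69e-30). By 20 h SNHG5 did not pass, 0.29 (95% interval 0.02 to 0.57, edgeR adjusted p = 0.0836), though it was higher with romidepsin without romidepsin 20 h replicate 1 (0.44, edgeR adjusted p = 0.0314). SNHG12 was slightly higher with romidepsin, 0.17 (95% interval 0.05 to 0.28, edgeR adjusted p = 0.0119), and SNHG1 slightly lower, -0.23 (95% interval -0.33 to -0.13, edgeR adjusted p = 6.04e-05). The difference of SNHG12 at 20 h was lost with library size alone as the scaling (0.10) and without panobinostat 20 h replicate 2 (0.12) or romidepsin 20 h replicate 1 (0.12).

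The hosts higher with romidepsin at 2 h were all among those that fell at 2 h of panobinostat, whereas SNHG19, SNHG31, SNHG32 and DANCR fell there without passing this comparison. Both calls rest on the same panobinostat libraries, so this overlap is partly built in. Its share over all genes was not computed. The log2 difference was 1.30 (95% interval 0.56 to 2.04, edgeR adjusted p = 0.00289) for MIR17HG, 1.23 (95% interval 0.82 to 1.64, edgeR adjusted p = 2.92e-07) for SNHG20 and 1.20 (95% interval 0.84 to 1.57, edgeR adjusted p = 2.13e-08) for SNHG26. At 20 h SNHG20 had turned to -0.86 (95% interval -1.42 to -0.30, edgeR adjusted p = 0.00864), a call lost without panobinostat 20 h replicate 1 (-0.78) or romidepsin 20 h replicate 2 (-0.71), while MIR17HG, 0.45 (95% interval -0.50 to 1.40, edgeR adjusted p = 0.499), and SNHG26, 0.38 (95% interval -0.14 to 0.91, edgeR adjusted p = 0.266), did not pass. Lower with romidepsin at 20 h were also SNHG7, -0.80 (95% interval -0.94 to -0.65, edgeR adjusted p = 4.7e-13), SNHG15, -0.75 (95% interval -0.91 to -0.58, edgeR adjusted p = 3.28e-13), SNHG17, -0.73 (95% interval -0.94 to -0.53, edgeR adjusted p = 1.69e-09), and SNHG16, -0.51 (95% interval -0.67 to -0.36, edgeR adjusted p = 2.14e-08). SNHG9 gave the largest difference at 20 h, -1.40 (95% interval -1.65 to -1.16, edgeR adjusted p = 1.29e-18). GAS5 did not pass at any of the 3 times, and its difference at 20 h was 0.04 (95% interval -0.04 to 0.12, edgeR adjusted p = 0.409), though without panobinostat 20 h replicate 1 it passed (0.13, edgeR adjusted p = 0.0369). DANCR was higher with romidepsin at 20 h, 0.38 (95% interval 0.24 to 0.51, edgeR adjusted p = 6.43e-07). Ricolinostat was given at another dose and is not compared.

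**Figure D3:**
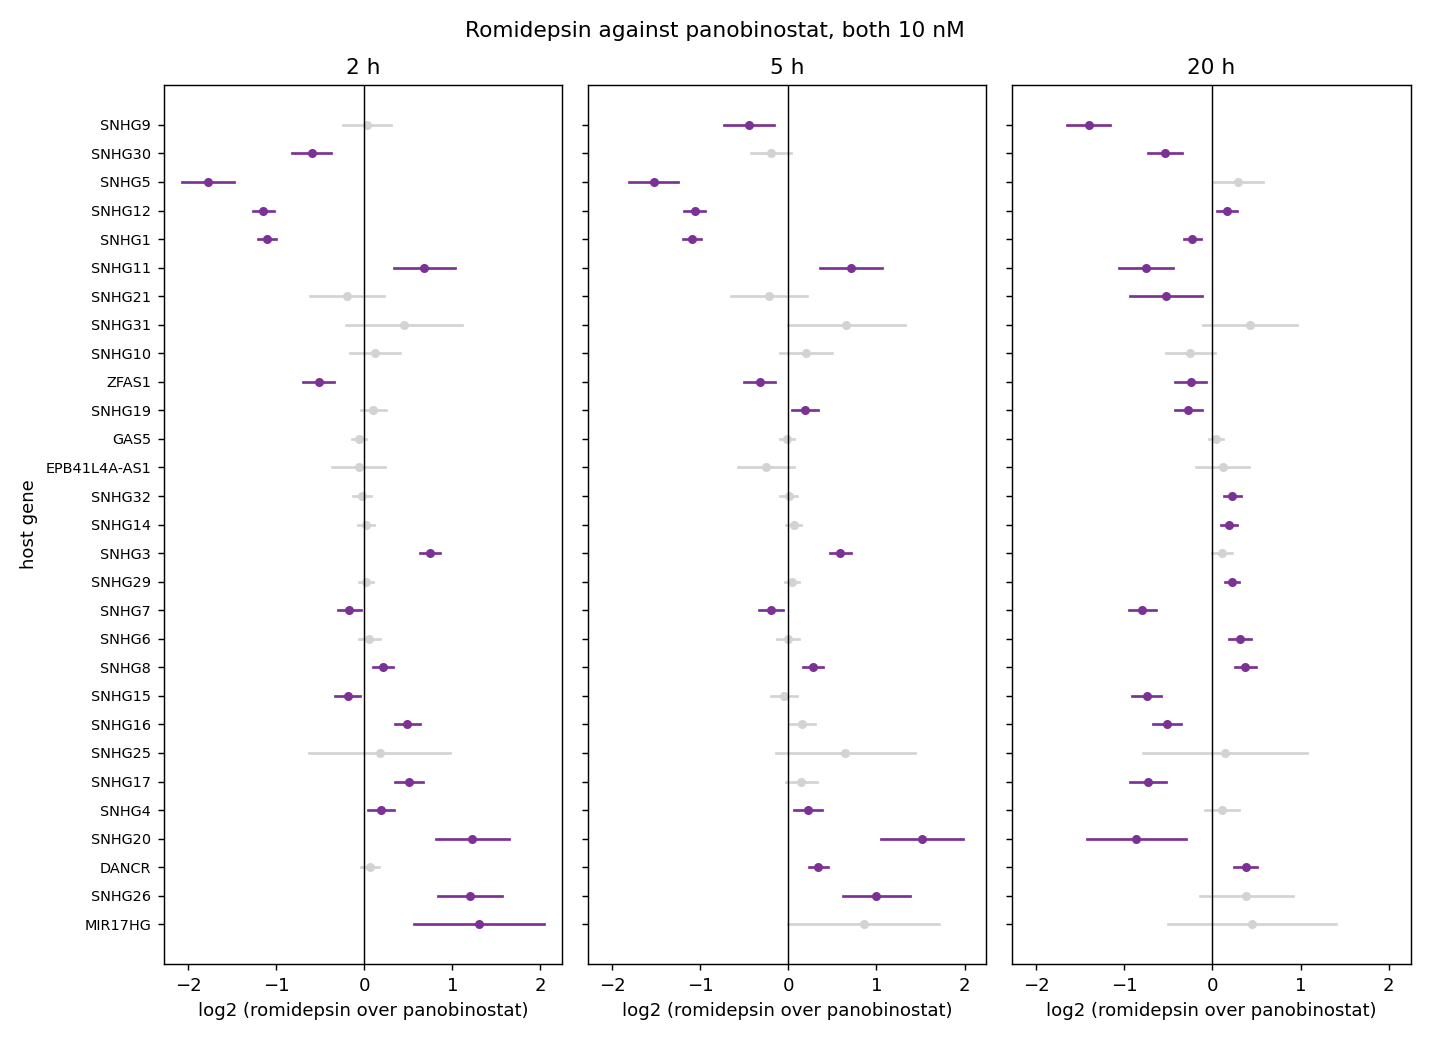
Log2 difference of 29 host genes between romidepsin and panobinostat at 2, 5 and 20 h, both 10 nM. Points are estimates and lines 95% intervals, purple where the edgeR adjusted p was under 0.05 and grey where it was not. SNHG5, SNHG12 and SNHG1 lie far left of 0 at 2 and 5 h and near 0 at 20 h, and SNHG20 lies right of 0 at 2 and 5 h and left of it at 20 h.

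The course over time was tested between successive times of each inhibitor. With panobinostat 1 host was higher and 11 lower at 5 h than at 2 h (all genes 19.8% and 22.2%), and 6 were higher and 18 lower at 20 h than at 5 h (all genes 27.5% and 28.9%). With romidepsin there were 2 and 10 for the first step (all genes 8.4% and 11.9%) and 6 and 17 for the second (all genes 33.4% and 29.4%). With ricolinostat there were 1 and 4 for the first step (all genes 6.69% and 8.58%) and 7 and 5 for the second (all genes 17.2% and 20.7%). With library size alone as the scaling, the first step gave 4 higher and 2 lower for panobinostat and 4 and 3 for romidepsin, and the second gave 7 and 12 for panobinostat and 12 and 4 for ricolinostat. Among the calls of all genes in the first step, that scaling moved the share of higher ones from 47.2% to 62.7% for panobinostat and from 41.4% to 65% for romidepsin. With the size factors of DESeq2 the first step of panobinostat gave 2 and 8. Without ricolinostat 5 h replicate 1 the second step of ricolinostat gave 13 higher and 3 lower, and the first 8 lower, against 2 without its replicate 2. The first step of panobinostat gave 0 higher and 6 lower without panobinostat 5 h replicate 1, 0 higher without its replicate 2 and 7 lower without panobinostat 2 h replicate 1. That of romidepsin gave between 0 and 3 higher and between 5 and 7 lower when any 1 of its 4 libraries was left out.

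From 5 to 20 h DANCR fell with panobinostat, -1.81 (SE 0.061, edgeR adjusted p = 1.15e-48), and romidepsin, -1.78 (SE 0.059, edgeR adjusted p = 2.52e-49). SNHG26 did likewise, with -1.60 (SE 0.24, edgeR adjusted p = 5.6e-09) and -2.22 (SE 0.21, edgeR adjusted p = 7.61e-17). SNHG5 went the other way in the 2 treatments, with -1.34 (SE 0.13, edgeR adjusted p = 7.99e-16) for panobinostat and 0.48 (SE 0.14, edgeR adjusted p = 0.00272) for romidepsin, a call lost without romidepsin 20 h replicate 2 (0.27). SNHG1 and SNHG12 rose between 5 and 20 h of romidepsin, by 0.73 and 0.96. With ricolinostat MIR17HG rose between 5 and 20 h, 1.40 (SE 0.34, edgeR adjusted p = 0.000543), as did SNHG26, 1.12 (SE 0.19, edgeR adjusted p = 2.64e-07), SNHG20, 0.70 (SE 0.20, edgeR adjusted p = 0.00273), and SNHG3, 0.67 (SE 0.057, edgeR adjusted p = 1.44e-18), while SNHG5 fell, -0.88 (SE 0.18, edgeR adjusted p = 1.74e-05).

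Several hosts share a start region with a gene on the other strand. SLC3A2, the heavy chain of amino acid transporters, starts 188 bases from SNHG1 by GENCODE 29. It fell in all 9 contrasts, with log2 changes of -0.43, -0.29 and -1.65 at 2, 5 and 20 h of panobinostat, -0.28, -0.67 and -1.40 at these times of romidepsin and -0.34, -0.40 and -0.59 at those of ricolinostat, so at 5 of them it fell where SNHG1 rose. ZNFX1, a helicase of the RNA interference and antiviral family, starts 248 bases from ZFAS1 and had 1.003, 0.63 and -0.17 with panobinostat and 0.09, 0.48 and 0.58 with romidepsin. RPS2, a ribosomal protein gene that starts 99 bases from SNHG9, had 0.58 at 20 h of panobinostat and 0.40 at 20 h of romidepsin, both higher. ZBTB37, a zinc finger gene that starts 800 bases from GAS5, had -1.02, -0.89 and -0.25 with panobinostat. BARD1, the partner of BRCA1, starts 518 bases from SNHG31 and fell at 20 h of panobinostat, -1.07, and romidepsin, -0.69. TRAF7, 340 bases from SNHG19, rose by 0.24 and 0.28 in these groups, where SNHG19 fell. GLRX5, which overlaps SNHG10, had 0.69 at 2 h and -0.27 at 20 h of panobinostat, ACAA2, 63 bases from SNHG22, had 1.11 at 20 h, and SEMA5A, 125 bases from SNHG18, had 3.64.

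**Figure D4:**
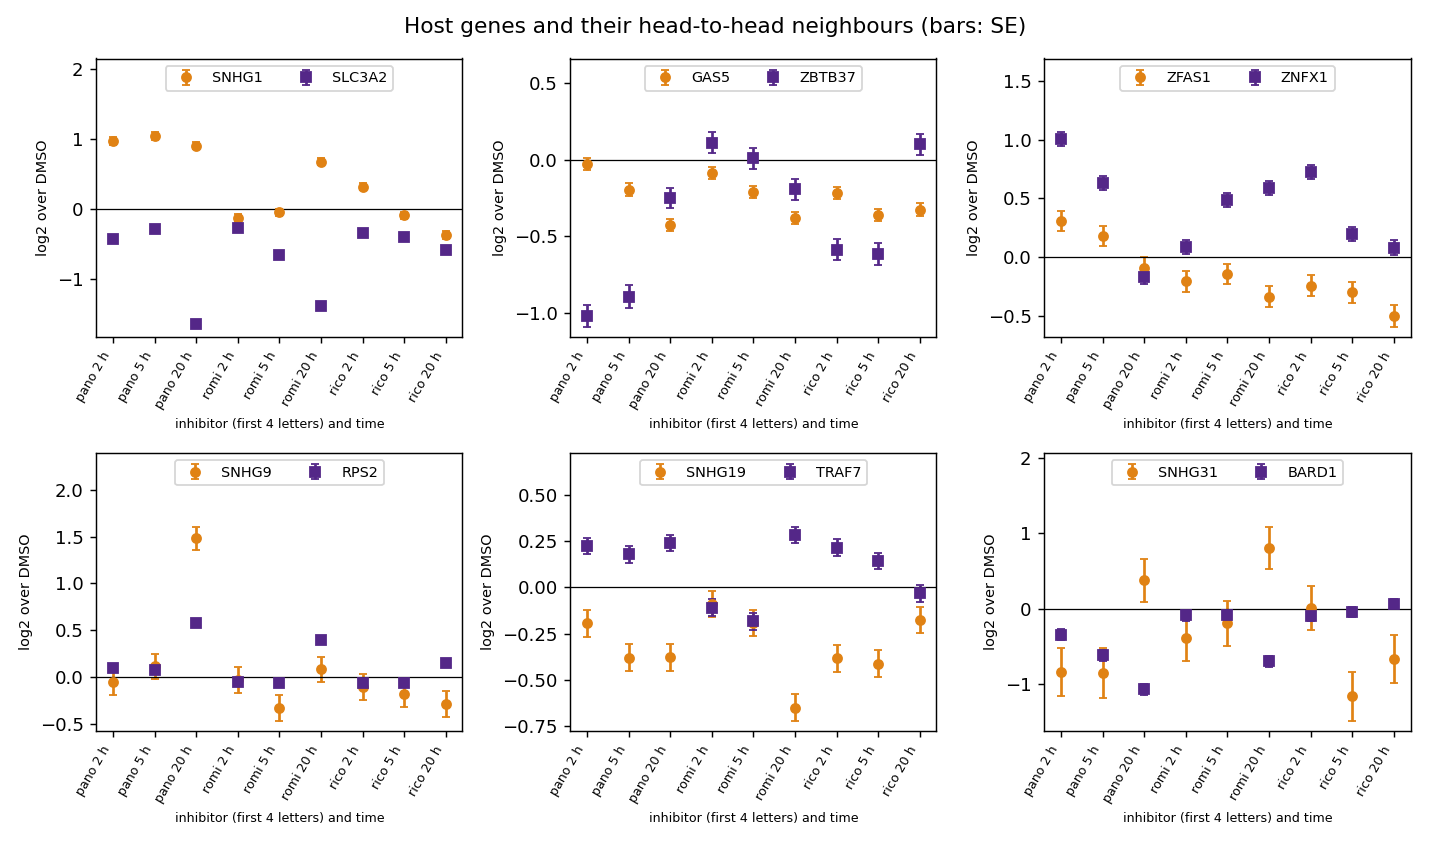
Log2 change against DMSO of 6 host genes (orange circles) and of the gene on the other strand that starts nearby (purple squares) in the 9 inhibitor groups, with standard errors as bars. SNHG1 lies above 0 for all 3 panobinostat groups while SLC3A2 lies below 0 in every group, and SNHG9 and RPS2 are both highest at 20 h of panobinostat.

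Reads can be shared between a host and an overlapping gene, and the strand setting of the counting is not given in the sources used here. By GENCODE 29, 12 hosts share at least 10% of their exon bases with another gene. For EPB41L4A-AS1 49.6% lies opposite EPB41L4A, for SNHG6 29.3% opposite MCMDC2, for SNHG7 25.2% opposite DIPK1B, for ZFAS1 11.1% opposite ZNFX1, and for SNHG4 14% on the same strand as MATR3. The overlapping genes named below were chosen for that overlap. DIPK1B fell at 20 h of panobinostat and romidepsin, with -1.10 and -1.80, beside -0.90 and -1.69 for SNHG7, and it rose at 5 h of both, 1.22 and 0.93. EPB41L4A rose at 20 h of both, 2.71 (SE 0.851) and 3.36 (SE 0.835), where EPB41L4A-AS1 fell. These large values rest on low levels, 0.824 CPM with panobinostat and 1.28 CPM with romidepsin, against 0.127 CPM in DMSO. The values of all 12 hosts are uncertain to that extent.

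Genes for the proteins that bind snoRNAs fell as well. Of the 8 core proteins of snoRNA particles, 7 fell at 5 h of panobinostat (median -0.46) and 5 at 5 h of romidepsin (median -0.22), where 25.9% and 16.5% of all genes fell. All 8 core proteins of snoRNA particles fell after 20 h of panobinostat (median -1.23) and after 20 h of romidepsin (median -1.59), and 7 of 8 after 20 h of ricolinostat (median -0.48), against 32.3%, 29.9% and 16.4% of all genes. DKC1, the pseudouridine synthase of the H/ACA particle, had -1.59, -2.23 and -0.54, and NOP56 of the C/D particle had -1.39, -1.95 and -0.37. SNU13, a C/D core protein, had -1.09, -1.81 and -0.59, and NHP2, an H/ACA core protein, had -1.45, -1.72 and -0.49. At 2 h of panobinostat 2 of the 8 rose and 3 fell. The 9 factors that assemble the particles went both ways, with 5 higher and 3 lower after 20 h of panobinostat and 4 and 4 after 20 h of romidepsin (all genes 40.8% and 32.3%, 38.6% and 29.9%). RUVBL1, an ATPase of the assembly complex, had -0.38 and -0.97 at 20 h of panobinostat and romidepsin, and SHQ1, a chaperone of DKC1, had 0.78 and 0.87.

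Protein-coding genes that also host snoRNAs mostly fell at 20 h, where 40.8% and 32.3% of all genes rose and fell with panobinostat and 38.6% and 29.9% with romidepsin. Of 24 ribosomal protein hosts, 1 rose and 21 fell with panobinostat (median -0.36), and 4 rose and 16 fell with romidepsin (median -0.20). Of 19 other coding hosts, 3 rose and 16 fell with panobinostat (median -1.05), and 3 and 14 with romidepsin (median -1.10). The translation factor EIF4G2 had -3.35 and -2.72 at 20 h of panobinostat and romidepsin, and WDR43, a factor of ribosome assembly, had -1.86 and -2.45. Of the ribosomal protein hosts, RPL17 had -1.06 and -0.68 in these groups. The NOP56, NOP58 and DKC1 genes stand in both the core list and this one. Of 17 factors of nonsense-mediated decay, 5 rose and 9 fell after 20 h of panobinostat and 2 and 11 after 20 h of romidepsin (all genes 40.8% and 32.3%, 38.6% and 29.9%). SMG9, a regulator of the kinase SMG1, fell in 8 of 9 contrasts, with -1.88 at 5 h of panobinostat and -1.59 at 20 h of romidepsin, and SMG5, which takes part in the decay step, had -1.31 and -0.93 in the same groups.

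Mature snoRNAs carry no poly(A) tail and are barely counted here. Of the 147 snoRNA genes inside the hosts, 139 had a row in the table, 20 had at least 1 count over the 20 libraries and 2 passed the filter. SNORA73B, inside SNHG3, had log2 changes of -1.25 (SE 0.24, edgeR adjusted p = 6.21e-06) at 2 h of panobinostat and -0.41 (SE 0.22, edgeR adjusted p = 0.0795) at 20 h, beside -0.92 and -0.76 for SNHG3. SNORA71B, inside SNHG17, had -1.45 (SE 0.46, edgeR adjusted p = 0.00375) at 20 h of panobinostat and -2.92 (SE 0.56, edgeR adjusted p = 2.13e-06) at 20 h of romidepsin, beside -1.78 and -2.51 for SNHG17. Such reads can also come from the unspliced host RNA, which these counts do not tell apart.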

How the data were processed

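The authors deposited 1 table of raw counts per gene and library, for which the submitters' processing notes list HISAT2, SAMtools, featureCounts and GRCh38. Which annotation release and strand setting were used is not given in the sources used here. All values were whole numbers. Of 78932 identifiers, 61481 were named by the name table and 57356 found in GENCODE 29, which gave positions and exon lengths. One further symbol that fits the rule in the RefSeq gene table, SNHG33, was not matched to a row and is not analysed here.

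Genes were filtered with filterByExpr of edgeR 4.0.16 (minimum count 10), which left 20957, and fitted in R 4.3.3 with TMM scaling and 1 robust quasi-likelihood model of 10 groups and 20 libraries. Benjamini-Hochberg adjustment ran over all genes tested in each of 18 contrasts, with a threshold of 0.05: 9 with DMSO, 3 of romidepsin with panobinostat and 6 between successive times. Fold changes are log2, two-sided tests were used, and SE is the change divided by the root of F. The common biological coefficient of variation was 0.0419. The fit was tested on simulated data. Total counts per library ran from 17264640 to 29088868. DESeq2 1.42.0 and the other alternatives are given at the end.

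Values per library are given for GAS5, ZFAS1, EPB41L4A-AS1, MIR17HG, DANCR and SNHG1 and for hosts among the 12 largest changes that reach 5 CPM. Companion lists show up to 4 genes each. Values of SNHG11, SNHG12 and SNHG14 per library were added after they had been seen. The members and lists were chosen with earlier results of these data known.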

Additional observations from a re-analysis of the deposited data

Results flagged for a closer look

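Hosts differed between romidepsin and panobinostat at the same dose by the test of the difference: 16 at 2 h, 14 at 5 h and 19 at 20 h. Of all genes, 17.3% and 19.8% were higher and lower at 2 h, 24.8% and 25.9% at 5 h and 23.4% and 18.3% at 20 h, so the hosts' share at 5 h was below that of all genes. Between successive times, 12 differed for 5 h against 2 h of panobinostat and 24 for 20 h against 5 h. For romidepsin 12 differed in the first step and 23 in the second, and for ricolinostat 5 and 12. The shares of all genes, higher and lower, were 19.8% and 22.2% and then 27.5% and 28.9% for panobinostat, 8.4% and 11.9% and 33.4% and 29.4% for romidepsin, and 6.69% and 8.58% and 17.2% and 20.7% for ricolinostat. The counts of the first panobinostat step and of both ricolinostat steps are near or below these shares.

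SNHG11 moved to opposite sides of DMSO within 1 inhibitor: it was below DMSO at 5 h of panobinostat (-0.70) and above it at 20 h (0.68), with a log2 difference of 1.38 (edgeR adjusted p = 5.7e-12). SNHG14 was above DMSO at 5 h of romidepsin (0.14) and below it at 20 h (-0.54), with a log2 difference of -0.68 (edgeR adjusted p = 1.42e-25). The call at 5 h was lost without DMSO replicate 2 (0.07) or either library of that group (0.11 and 0.13).

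Rows for snoRNA genes themselves lie outside the comparisons of host genes. Their summed level, taken over SNORD, SNORA and SCARNA symbols, was 76.1 CPM after 20 h of panobinostat (75.4 and 76.7 CPM). This was above both DMSO libraries, which averaged 47.0 CPM (46.3 and 47.8 CPM). Smaller rises above both DMSO libraries were seen at 2 h (54.6 and 52.2 CPM) and 5 h (49.4 and 54.3 CPM) of panobinostat. The libraries at 20 h of romidepsin also lay above them (54.1 and 56.7 CPM). SNORD3B-1 averaged 14.1 CPM and SNORD3A 12.6 CPM at 20 h of panobinostat and 6.57 and 5.62 CPM at 20 h of romidepsin, against 2.44 and 2.75 CPM in DMSO. These are genes of the U3 snoRNA and lie in no host described here.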

How the results depend on the processing

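Of 396 counts of hosts recomputed under alternatives, 325 stayed within 1.5 times the main count. The share of all genes called under each alternative is not given, so whether the hosts differ from all genes there is not shown. Of 1583 values of named hosts, 1466 kept their direction and side of the threshold, and 1 turned: ZFAS1 at 20 h of panobinostat moved to 0.21 (edgeR adjusted p = 0.0246) with library size alone. Of 160 mean levels of named hosts, 77 moved by more than the spread between replicates with plain library sizes. The 2 sets of levels differ only by the TMM factor of each library, which ran from 0.9253 to 1.165. Why these factors differ between groups was not tested.

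With library size alone, hosts higher than DMSO numbered 7 at 5 h of panobinostat, 2 at 2 h of romidepsin and 2 at 20 h of ricolinostat. Those lower numbered 3 at 2 h and 10 at 5 h of romidepsin. The step to 5 h gave 4 higher and 2 lower for panobinostat and 4 and 3 for romidepsin, and the step to 20 h of ricolinostat 12 higher. DESeq2-type size factors gave 2 higher in the step to 5 h of panobinostat and 1 in that of romidepsin. Without the filter, romidepsin at 2 h had 0 higher and 3 lower, and the step to 5 h had 0 higher for panobinostat and 1 for romidepsin. Fitting only the 2 groups compared gave 0 higher and 8 lower for romidepsin at 2 h, 1 higher for ricolinostat at 20 h and 2 higher in the step to 5 h of panobinostat. The DESeq2 Wald test gave 2 higher for romidepsin at 5 h and 1 in its step to 5 h.

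Requiring 1.5-fold as well, panobinostat had 8 lower at 2 h and 9 at 5 h. Romidepsin had 0 higher and 0 lower at 2 h and 1 and 5 at 5 h. Ricolinostat had 1 and 5 at 2 h, 1 and 7 at 5 h and 0 lower at 20 h. Romidepsin against panobinostat gave 5 and 4 at 2 h, 4 and 3 at 5 h and 0 and 6 at 20 h. The step to 5 h gave 0 and 1 for panobinostat, 0 and 0 for romidepsin and 1 lower for ricolinostat. The step to 20 h gave 11 lower for panobinostat, 3 and 11 for romidepsin and 4 and 1 for ricolinostat.

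Leaving out 1 library, romidepsin at 2 h ranged from 0 to 1 higher and 2 to 4 lower, romidepsin at 5 h from 2 to 4 higher and ricolinostat at 5 h from 1 to 3 higher. The step to 5 h ranged from 0 to 1 higher and 6 to 11 lower for panobinostat, 0 to 3 higher and 5 to 7 lower for romidepsin and 2 to 8 lower for ricolinostat. The step to 20 h of ricolinostat ranged from 5 to 13 higher and 3 to 6 lower. A group left with 1 library is assumed to vary like the others.

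Replicate numbers did not pair the libraries (correlations of deviations -0.0248 to 0.0347 over 45 pairs of groups), and with the replicate block the count of higher hosts at 2 h of panobinostat was 5 and that of lower hosts 14, and no count moved by over 1.5 times. The share of higher among all calls moved with library size alone from 43.4% to 65.6% for romidepsin at 2 h, from 44.1% to 71.3% at 5 h and from 47.3% to 66.2% for ricolinostat at 20 h. Group size of 2 limits the precision of every value, and depth limits MIR17HG, SNHG18, SNHG22, SNHG25 and SNHG27.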
